A study of Mus musculus with 6 samples.

Results

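The cell cycle and DNA replication genes described here are the listed genes whose symbols start with the letters of the families that license, copy, condense and divide the genome (the Mcm, Orc, Gins, Pola, Pold, Pole, Rfc, E2f, Ccna, Ccnb, Ccnd, Ccne, Cdk, Cenp, Bub, Aurk, Plk and Kif families and Ndc80), together with Pcna, Birc5 and Wee1. They were chosen by symbol alone, and 101 of the 8191 genes of the deposited table met the rule. Mki67 and Top2a, which the rule also names, are not among the listed genes and were not analysed here. Reading the symbols rather than the functions also brings in 19 other CDKs and CDK-named genes, grouped here as outside the division cycle. This label does not mean that none of the 19 acts in the cycle. Also brought in are 14 kinesins of transport and other tasks, and Aurkaip1 and Ccnb1ip1, which are named after a partner in these families.

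Expression was measured by mRNA-seq in myeloid-derived suppressor cells (MDSCs), immature myeloid cells that suppress T cells, taken as CD11b+ Gr-1+ cells from the spleen of aged mice on the BALB/c background. The 3 groups were wild type (WT), Tnfr1-/- mice lacking TNF receptor 1, and Tnfr2-/- mice lacking TNF receptor 2, with 2 samples each and no treatment or culture. Mice were 18 to 24 months old and the MDSCs of 5 mice were pooled per experiment, so the p-values measure the spread between pools and not between mice. Values are FPKM, a fragment level per transcript length and library, and the table lists only genes whose one-way ANOVA over the 3 genotypes gave a p of at most 0.05, so that every gene named here had already been picked for a genotype difference.

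A cell that divides first licenses its origins: the origin recognition complex (ORC) recruits the MCM helicase, which the GINS complex then helps to activate. DNA polymerases copy the template with the sliding clamp PCNA, which the replication factor C (RFC) complex loads. D-type cyclins with CDK4 and CDK6 inactivate the RB protein and free E2F factors to switch on these same genes, cyclin E with CDK2 drives the entry into S phase, and cyclin B with CDK1 and the Aurora and Polo-like kinases drives mitosis. Immature myeloid cells of the marrow and spleen can divide, while mature neutrophils do not.

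The libraries differed between genotypes far beyond these genes. All listed FPKM added up to 344714 and 346870 for the WT samples, 134343 and 133604 for the Tnfr1-/- samples and 148956 and 155248 for the Tnfr2-/- samples, and WT entries carry at most 10 significant digits against 6 in both knockouts. How the values were made and genotype therefore cannot be told apart, and each result is given as deposited and after median-ratio scaling, which divides each sample by its median ratio to the geometric mean of the samples. As deposited, the median of all listed genes was a log2 change of −0.74 for Tnfr2-/- against WT and −0.83 for Tnfr1-/- against WT, and after this scaling both medians were −0.03. Tnfrsf1b, which encodes TNFR2, was at 111.8 and 114.9 FPKM in WT, 47.8 and 69.6 FPKM in Tnfr1-/-, and 11.3 and 14.3 FPKM in Tnfr2-/- MDSCs, while Tnfrsf1a, which encodes TNFR1, was not analysed here. 

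Markers of the cells that a CD11b+ Gr-1+ gate could hold also split by genotype. The 3 listed granulocyte markers of 11 (Retnlg, Csf3r, Mmp9) summed to 13.7 to 15.4 FPKM in WT and to 1522 to 3070 FPKM in the knockouts, so granulocyte RNA was near absent from the samples labelled WT by these genes. The 10 listed macrophage markers of 11 summed to 3247 to 3402 FPKM in WT and to 288 to 400 FPKM in the knockouts with every one called lower in both as deposited. As deposited, 57.1% and 60.7% of all listed genes were called lower in Tnfr2-/- and Tnfr1-/-. After median-ratio scaling 8 of these markers were called lower in Tnfr2-/- and 7 in Tnfr1-/-, beside 21% and 22.1% of all listed genes. Spic was then above 0 (0.25 and 0.077) and not called. Of 5 listed dendritic cell markers of 6, Itgax stood at 216 to 219 FPKM in WT and 12.5 to 17.1 FPKM in the knockouts and made up most of the WT sum of 234 to 239 FPKM, while Flt3 (0.156 to 0.260 FPKM in WT, 1.21 to 2.34 FPKM in the knockouts) was called higher. Clec9a (5.90 to 8.16 FPKM in WT, 0.321 to 2.52 FPKM in the knockouts) was called lower in both knockouts as deposited. Zbtb46 and Cd209a were called lower in Tnfr1-/- alone. After median-ratio scaling Clec9a was called lower in Tnfr1-/- alone, and Zbtb46 and Cd209a were not called. The 4 listed monocyte markers of 6 went opposite ways as deposited: Csf1r, at 225 to 237 FPKM in WT and 71.3 to 171 FPKM in the knockouts, was called lower, whereas Ly6c1 (0.0638 to 0.159 FPKM in WT, 95.8 to 178 FPKM in the knockouts), Ccr2 (14.9 to 15.0 FPKM, 80.0 to 229 FPKM) and F13a1 (4.61 to 4.89 FPKM, 50.9 to 104 FPKM) were called higher. After median-ratio scaling these 3 were still called higher in both knockouts. Csf1r was then not called, with log2 changes of 0.40 in Tnfr2-/- and −0.36 in Tnfr1-/-. The 4 listed B cell markers of 6 summed to 46.5 to 46.9 FPKM in WT and 167 to 382 FPKM in the knockouts, and Jchain, the one listed plasma cell marker of 4, stood at 165 to 198 FPKM in WT and 879 to 2186 FPKM in the knockouts. The 3 listed T cell markers of 7 (20.1 to 43.0 FPKM over all 6 samples), 2 erythroid markers of 12 (27.2 to 27.8 FPKM in WT and 6.42 to 9.76 FPKM in the knockouts) and 2 progenitor markers of 7 (4.91 to 6.53 FPKM and 0.943 to 1.43 FPKM) were low. The T cell markers moved apart. Cd4 (24.2 to 25.7 FPKM in WT, 3.86 to 4.89 FPKM in the knockouts) was called lower in both knockouts under both scalings. Cd3d (3.21 to 3.39 FPKM, 6.78 to 16.4 FPKM) was called higher in both under both scalings. Cd3g was called higher in Tnfr1-/- alone as deposited and in both after median-ratio scaling. Of 5 genes of the gate only Ptprc and Ly6c1 are listed. Ptprc was at 98.2 to 105 FPKM in WT and 229 to 271 FPKM in the knockouts, and Ly6c1, a Gr-1 related Ly6 gene, was near 0 in both WT samples and in no knockout sample. No listed marker stood at 0 in any sample, and the part of cell makeup in the results below was not tested. In bulk samples, fewer cells of a type and less RNA per cell cannot be told apart.

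Most cell cycle and replication genes were lower in both knockouts than in WT as deposited, and about 1 in 4 was still called lower once the samples were scaled to each other. In Tnfr2-/- against WT, 73 of 101 members (72.3%) were called lower and 9 higher, against 57.1% lower and 13.6% higher of all 8191 listed genes, and the members' median was −0.99 on the log2 scale. In Tnfr1-/- against WT, 76 (75.2%) were called lower and 9 higher, against 60.7% and 14.1% of all listed genes, with a median of −1.18. Both Tnfr2-/- samples lay below both WT samples for 87 members and above them for 13 (77.2% and 21.1% of all listed genes), and both Tnfr1-/- samples for 86 and 14 (77.3% and 21.7%). Called means an adjusted p under 0.05 from limma over all listed genes and a fold change over 1.5. After median-ratio scaling, 24 members (23.8%) were called lower and 15 higher in Tnfr2-/-, against 21% and 21.8% of all listed genes, and 25 lower and 16 higher in Tnfr1-/-, against 22.1% and 23.3%, with medians of −0.14 and −0.19. With all samples, these shares called lower were near those of all listed genes. After quantile normalization they were 27.7% against 22.8% in Tnfr2-/- and 33.7% against 25.3% in Tnfr1-/-. Under median-ratio scaling, leaving out either WT sample brought the 24 down to 13 (17.3% to 17.5% of all listed genes), and leaving out 1 sample at a time moved the 25 to between 19 and 32, the 32 without the first Tnfr1-/- sample, when 21.3% of all listed genes were called lower. Both comparisons use the same WT samples, so their likeness is not independent evidence.

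The sum over the 101 members was 1633 and 1618 FPKM in WT, 784 and 706 FPKM in Tnfr1-/-, and 761 and 816 FPKM in Tnfr2-/- MDSCs. As a share of all listed FPKM the members nevertheless made up 0.474% and 0.466% in WT, 0.583% and 0.528% in Tnfr1-/-, and 0.511% and 0.525% in Tnfr2-/- samples. As a sum, that higher share lay in the 33 genes grouped as CDK-named outside the cycle or as transport and other kinesins. They made up 0.110% and 0.104% in WT, 0.224% and 0.232% in Tnfr1-/-, and 0.208% and 0.194% in Tnfr2-/- samples. The rise was not shared by the whole class. As deposited, 10 of the 19 CDK-named genes and 6 of the 14 kinesins were called lower in Tnfr2-/-, and 9 and 7 in Tnfr1-/-. In each knockout 5 and 1 were called higher, Cdk2ap2 and Kif21b among them. The other 68 members made up 0.364% and 0.362% in WT, 0.359% and 0.296% in Tnfr1-/-, and 0.303% and 0.332% in Tnfr2-/- samples. Members that were called the same way as deposited, after median-ratio scaling and after quantile normalization numbered 23 lower and 9 higher in Tnfr2-/- and 24 lower and 9 higher in Tnfr1-/- against WT. Of all listed genes 19.9% were lower and 13.6% higher in this way in Tnfr2-/-, and 21.4% and 14.1% in Tnfr1-/-, so the lower shares of the members (23 and 24 of 101) were near the background.

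**Figure D1:**
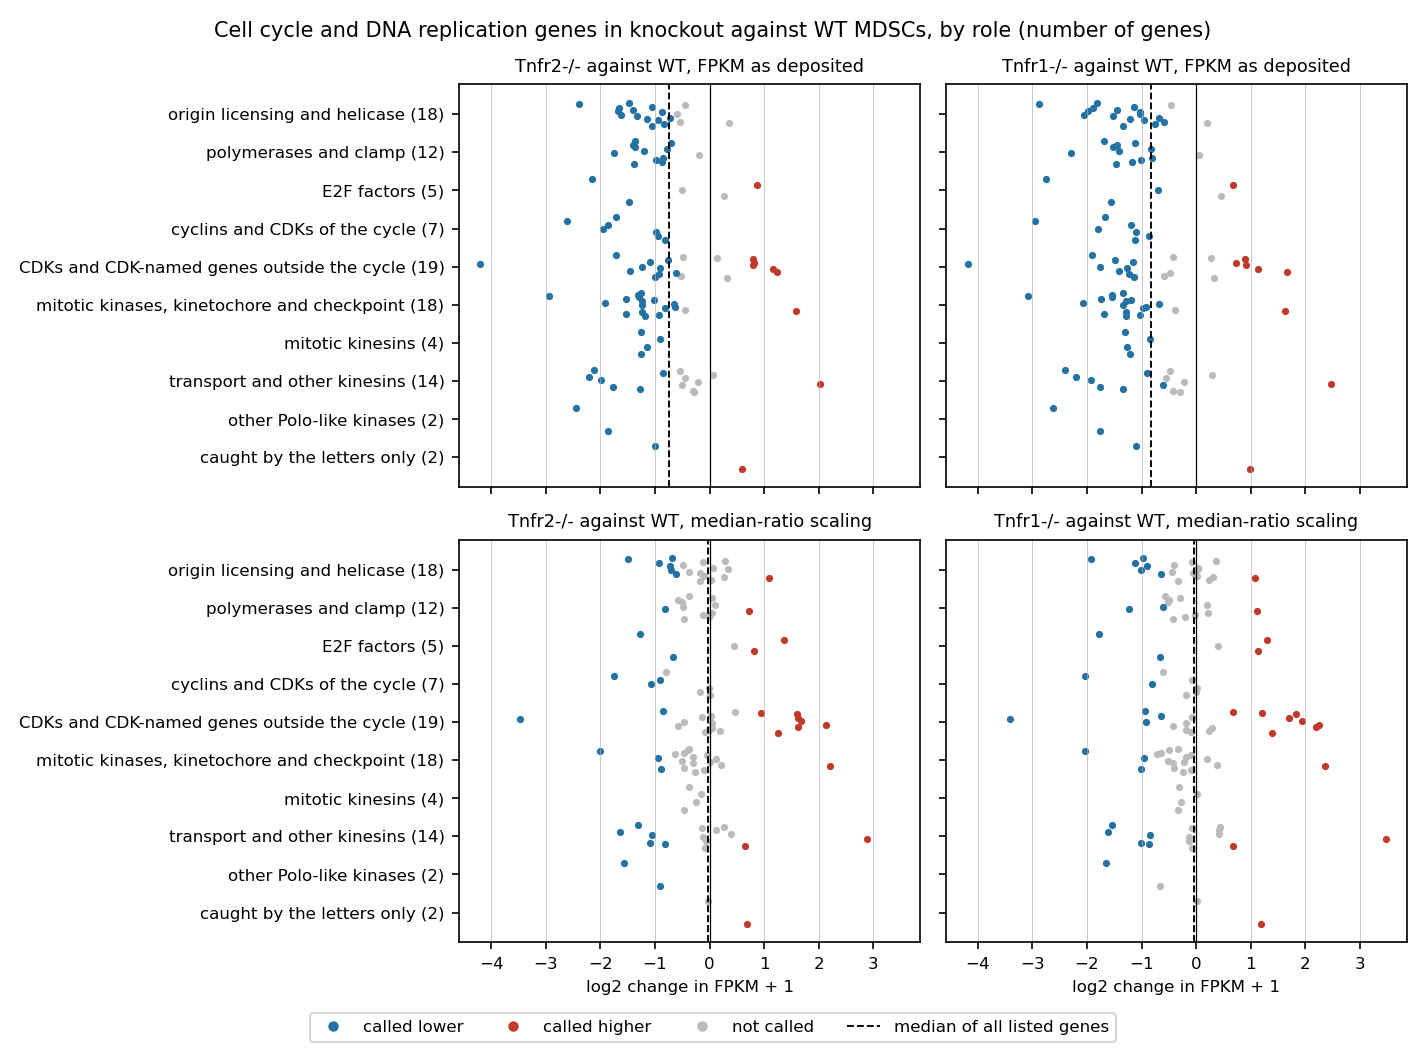
Log2 change in FPKM + 1 of the 101 members (points) by role, in Tnfr2-/- (left) and Tnfr1-/- (right) against WT, for FPKM as deposited (top) and after median-ratio scaling (bottom). Blue points were called lower, red points higher and grey points not called, and the dashed line is the median of all 8191 listed genes. As deposited most points lie left of 0, around or below the dashed line at −0.74 and −0.83, and after scaling most turn grey while members such as Cdk18, Birc5 and Ccnd1 stay far to the left and Kif21b and Cenpq far to the right.

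Of the 18 origin licensing and helicase genes, 14 (77.8%) were called lower in Tnfr2-/- and 16 (88.9%) in Tnfr1-/- MDSCs as deposited, and 6 (33.3%) in each after median-ratio scaling, when 1 (Orc4) was called higher. The shares of all listed genes called lower were 57.1% and 60.7% as deposited, and 21% and 22.1% after this scaling. Members of one hexamer moved unequally. For Mcm3 the WT samples gave 34.2 and 36.4 FPKM, the Tnfr1-/- samples 9.43 and 7.11 FPKM, and the Tnfr2-/- samples 8.35 and 12.7 FPKM. Mcm6 measured 25.0 and 24.8 FPKM in the WT samples, 6.46 and 4.24 FPKM in the Tnfr1-/- samples, and 6.16 and 8.81 FPKM in the Tnfr2-/- samples. Both helicase subunits fell under every scaling. As deposited the log2 change of Mcm3 was −1.68 (SE 0.22, adjusted p = 0.00138) in Tnfr2-/- and −1.98 (SE 0.22, adjusted p = 0.000701) in Tnfr1-/-, and that of Mcm6 −1.63 (SE 0.23, adjusted p = 0.00167) and −2.05 (SE 0.23, adjusted p = 0.000682). After median-ratio scaling these were −0.73 and −0.90 for Mcm3 and −0.70 and −1.0 for Mcm6. Mcm4 was at 21.5 and 20.9 FPKM in WT, 10.5 and 9.29 FPKM in Tnfr1-/-, and 10.3 and 12.1 FPKM in Tnfr2-/- MDSCs. For Mcm5 the WT samples gave 23.1 and 25.1 FPKM, the Tnfr1-/- samples 14.7 and 8.58 FPKM, and the Tnfr2-/- samples 14.6 and 16.6 FPKM. The samples of both knockouts lay below WT for both genes as deposited, yet after median-ratio scaling neither was called, with log2 changes of 0.062 and 0.036 for Mcm4 and 0.35 and 0.044 for Mcm5 in Tnfr2-/- and Tnfr1-/-, so their lower direction did not hold. Mcm2 measured 20.7 and 18.9 FPKM in the WT samples, 8.30 and 5.19 FPKM in the Tnfr1-/- samples, and 6.73 and 6.99 FPKM in the Tnfr2-/- samples. Mcm7 was at 28.8 and 30.9 FPKM in WT, 12.3 and 7.64 FPKM in Tnfr1-/-, and 10.7 and 11.9 FPKM in Tnfr2-/- MDSCs. Mcm2 and Mcm7 were called lower in both knockouts as deposited (log2 changes of −1.40 and −1.33 in Tnfr2-/-) and not after median-ratio scaling (−0.48 and −0.38).

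The ORC and GINS genes divided in the same manner. For Orc1 the WT samples gave 2.13 and 2.13 FPKM, the Tnfr1-/- samples 0.421 and 0.289 FPKM, and the Tnfr2-/- samples 0.285 and 0.564 FPKM. Orc6 measured 12.4 and 10.9 FPKM in the WT samples, 4.73 and 3.40 FPKM in the Tnfr1-/- samples, and 4.24 and 6.15 FPKM in the Tnfr2-/- samples. Orc1, the largest subunit of the complex, was called lower as deposited (−1.14 and −1.21 in Tnfr2-/- and Tnfr1-/-) and after median-ratio scaling (−0.61 and −0.64), though not after quantile normalization, while Orc6 was called lower only as deposited (−1.05 and −1.33) and had log2 changes of −0.17 and −0.34 after median-ratio scaling. Gins1 was at 6.55 and 7.20 FPKM in WT, 1.51 and 0.980 FPKM in Tnfr1-/-, and 1.65 and 2.00 FPKM in Tnfr2-/- MDSCs. Gins1 fell under every scaling, with log2 changes of −1.48 (SE 0.15, adjusted p = 0.000524) and −1.82 as deposited and −0.69 and −0.96 after median-ratio scaling. Mcm10, which helps to start unwinding, also fell under all 3 scalings, with log2 changes of −1.65 in Tnfr2-/- and −1.90 in Tnfr1-/- as deposited. Gins2 had the lowest log2 changes of the 18 (−2.38 and −2.87), but 67.3% of its exon bases lie antisense to Gse1, and without a stated strand setting reads of the pair cannot be told apart.

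**Figure D2:**
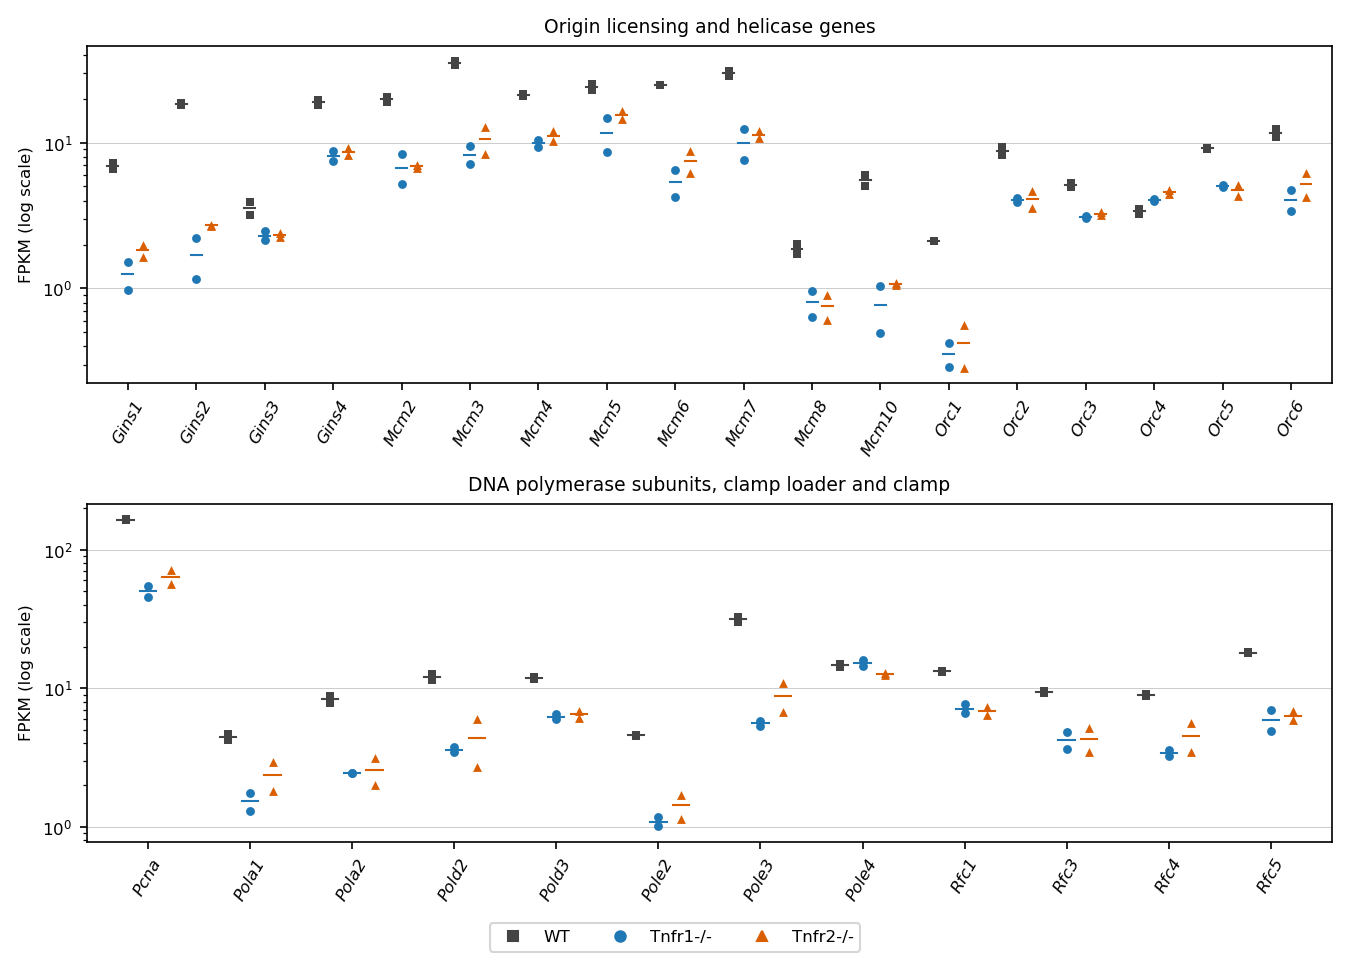
FPKM on a log scale of the 18 origin licensing and helicase genes (top) and of the 12 polymerase, clamp loader and clamp genes (bottom), with a point for each sample of WT (squares), Tnfr1-/- (circles) and Tnfr2-/- (triangles) MDSCs and a bar for the mean of 2 samples. As deposited the knockout samples lie below WT for all genes but Orc4 and Pole4, with the widest gap for Gins2, and the knockout groups overlap for many genes. After median-ratio scaling 6 of the 18 and 1 or 2 of the 12 were still called lower, beside 21% and 22.1% of all listed genes.

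Promoter sequences are shown for 5 members because E2F factors act on such sequences and are themselves among the members. In the 250 bases before the start of 81 members with a RefSeq entry (GRCm38.p6), TTTCCCGC or TTTGGCGC was found on either strand in 9 (11.1%), against 2.49% of 6593 listed genes and 1.51% of 27025 genes. Within the origin licensing and helicase group the letters stood in 5 of 14 promoters (35.7%), and CCAAT in 12 of 14 (85.7%, against 40.3% of listed genes and 37.5% of all genes). TTTGAA, the letters of the cell cycle homology region, was found in 13.6% of members, 12.5% of listed genes and 18.3% of all genes. None of the E2F-type matches overlapped another of these motifs, and a match describes letters and is no evidence that a factor was bound. The windows of Mcm5, Mcm6 and Mcm7, Pole4 and Cenpb are printed below, 5′ to 3′ on the strand of the gene and ending at the base before the start, with E2F-type and CCAAT letters (ATTGG on the opposite strand) in capitals. Mcm5 (chr8:75109259-75109508, plus strand) has the E2F-type letters beginning 149 bases before the start, Mcm6 (chr1:128359706-128359955, minus strand) at 110 and 47 bases, Mcm7 (chr5:138171884-138172133, minus strand) at 165 bases, Pole4 (chr6:82652875-82653124, minus strand) at 34 bases and Cenpb (chr2:131180068-131180317, minus strand) at 141 bases.
Mcm5: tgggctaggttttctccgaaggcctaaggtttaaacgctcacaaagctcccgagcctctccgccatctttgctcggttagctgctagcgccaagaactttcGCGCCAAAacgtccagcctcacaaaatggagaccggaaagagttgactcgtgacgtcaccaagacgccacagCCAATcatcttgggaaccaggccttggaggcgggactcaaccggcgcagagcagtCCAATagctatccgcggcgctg
Mcm6: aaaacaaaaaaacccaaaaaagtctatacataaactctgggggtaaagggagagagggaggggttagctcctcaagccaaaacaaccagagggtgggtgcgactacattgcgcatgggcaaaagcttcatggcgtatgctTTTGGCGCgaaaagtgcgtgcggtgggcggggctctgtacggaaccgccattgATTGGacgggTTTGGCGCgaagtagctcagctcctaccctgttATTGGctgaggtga
Mcm7: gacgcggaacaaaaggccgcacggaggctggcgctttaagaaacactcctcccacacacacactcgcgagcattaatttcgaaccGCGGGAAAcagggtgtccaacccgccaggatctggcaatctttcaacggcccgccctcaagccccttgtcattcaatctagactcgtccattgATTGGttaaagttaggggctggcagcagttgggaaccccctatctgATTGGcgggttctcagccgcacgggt
Pole4: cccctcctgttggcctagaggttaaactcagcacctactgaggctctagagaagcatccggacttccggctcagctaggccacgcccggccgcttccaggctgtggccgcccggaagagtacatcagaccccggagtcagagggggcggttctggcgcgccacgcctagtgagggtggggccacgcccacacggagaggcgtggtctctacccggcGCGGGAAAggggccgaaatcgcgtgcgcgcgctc
Cenpb: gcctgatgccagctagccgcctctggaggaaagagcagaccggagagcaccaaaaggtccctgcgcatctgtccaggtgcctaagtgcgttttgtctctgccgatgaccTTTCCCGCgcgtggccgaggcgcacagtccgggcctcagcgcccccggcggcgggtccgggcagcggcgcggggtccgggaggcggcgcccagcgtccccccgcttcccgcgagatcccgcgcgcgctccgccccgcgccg
The members with these letters did not all have the same calls. Mcm6 and Cenpb, which has 1 E2F-type match and no CCAAT, were called lower in both knockouts under every scaling. Mcm5 was called in neither knockout after median-ratio scaling, and Pole4 was called higher after median-ratio scaling in both knockouts (0.72 and 1.12) with log2 changes of −0.20 and 0.056 as deposited.

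Of the 12 genes of the polymerases and the clamp, 11 were called lower in each knockout as deposited, but after median-ratio scaling 1 was called lower in Tnfr2-/- (Pole3) and 2 in Tnfr1-/- (Pole2 and Pole3), and Pole4 was called higher in both. Among all listed genes 57.1% and 60.7% were called lower as deposited, and 21% and 22.1% after this scaling. After quantile normalization 3 were called lower in Tnfr2-/- and 6 in Tnfr1-/-, and 1 was called higher, in Tnfr1-/- alone. For Pcna the WT samples gave 166 and 164 FPKM, the Tnfr1-/- samples 54.9 and 45.9 FPKM, and the Tnfr2-/- samples 56.9 and 71.0 FPKM. Pcna, the sliding clamp (chromosome 2 from 132249162 to 132253314, GRCm38), was the most abundant member in WT per transcript length and fell as deposited, with log2 changes of −1.36 (SE 0.14, adjusted p = 0.000653) in Tnfr2-/- and −1.69 (SE 0.14, adjusted p = 0.000285) in Tnfr1-/-, and was not called after median-ratio scaling, at −0.37 and −0.56. Of its 50-base windows, 19.1% also occur in another gene, the pseudogene Pcna-ps2, which makes its values uncertain like those of Mcm7 (23.3%), Ccnb1 (23.4%), Cdk4 (17%) and 10 other members with over 10% of such windows. Pola1 measured 4.26 and 4.70 FPKM in the WT samples, 1.76 and 1.30 FPKM in the Tnfr1-/- samples, and 1.83 and 2.94 FPKM in the Tnfr2-/- samples. Pola1, the catalytic subunit of polymerase alpha, was called lower as deposited (−0.71 and −1.12), with a median-ratio change of 0.04 in Tnfr2-/- and −0.29 in Tnfr1-/-. Pole3 and Pole4 pair with each other in polymerase epsilon but had different calls. Pole3 was at 30.0 and 32.9 FPKM in WT, 5.85 and 5.36 FPKM in Tnfr1-/-, and 6.80 and 10.9 FPKM in Tnfr2-/- MDSCs. For Pole4 the WT samples gave 14.3 and 14.9 FPKM, the Tnfr1-/- samples 14.6 and 15.9 FPKM, and the Tnfr2-/- samples 12.8 and 12.4 FPKM. Pole3 fell under all 3 scalings. Pole4 was not called as deposited (−0.20 in Tnfr2-/-, with both samples below WT, and 0.056 in Tnfr1-/-).

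The clamp loader genes kept one pattern. Rfc1 measured 13.4 and 13.1 FPKM in the WT samples, 7.66 and 6.60 FPKM in the Tnfr1-/- samples, and 7.36 and 6.45 FPKM in the Tnfr2-/- samples. Rfc3 was at 9.52 and 9.30 FPKM in WT, 4.80 and 3.64 FPKM in Tnfr1-/-, and 3.47 and 5.17 FPKM in Tnfr2-/- MDSCs. The other 2 listed subunits lay in the same range. For Rfc4 the WT samples gave 9.08 and 8.74 FPKM, the Tnfr1-/- samples 3.56 and 3.22 FPKM, and the Tnfr2-/- samples 3.46 and 5.61 FPKM. Rfc5 measured 17.9 and 18.2 FPKM in the WT samples, 7.02 and 4.88 FPKM in the Tnfr1-/- samples, and 5.87 and 6.83 FPKM in the Tnfr2-/- samples. All 4 were called lower in both knockouts as deposited (log2 changes of −1.38 to −0.85 in Tnfr2-/- and −1.47 to −0.81 in Tnfr1-/-) and none after median-ratio scaling, when Rfc1 had log2 changes of 0.05 and 0.22, above 0.

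The E2F factors moved in opposite directions within the family. E2f1 was at 17.4 and 19.2 FPKM in WT, 2.70 and 1.24 FPKM in Tnfr1-/-, and 3.15 and 3.48 FPKM in Tnfr2-/- MDSCs. E2f1, the activator that RB restrains (chromosome 2 from 154559407 to 154569892, GRCm38), fell, with log2 changes of −2.16 (SE 0.25, adjusted p = 0.000882) in Tnfr2-/- and −2.74 (SE 0.25, adjusted p = 0.000359) in Tnfr1-/-, and of −1.27 and −1.78 after median-ratio scaling. For E2f6 the WT samples gave 7.49 and 8.10 FPKM, the Tnfr1-/- samples 2.19 and 1.77 FPKM, and the Tnfr2-/- samples 1.91 and 2.44 FPKM. E2f6, a repressor that works without RB, fell under every scaling too, with log2 changes of −1.48 and −1.57 as deposited and −0.66 and −0.65 after median-ratio scaling. E2f3 measured 0.968 and 0.970 FPKM in the WT samples, 2.48 and 1.88 FPKM in the Tnfr1-/- samples, and 2.43 and 2.73 FPKM in the Tnfr2-/- samples. E2f3, an activator like E2f1, rose under every scaling, by 0.86 (SE 0.11, adjusted p = 0.00122) and 0.68 (SE 0.11, adjusted p = 0.00244) as deposited and 1.37 and 1.29 after median-ratio scaling, with every knockout sample above both WT samples. E2f4 was at 34.0 and 31.7 FPKM in WT, 19.9 and 19.9 FPKM in Tnfr1-/-, and 21.2 and 24.5 FPKM in Tnfr2-/- MDSCs. For E2f5 the WT samples gave 1.54 and 1.35 FPKM, the Tnfr1-/- samples 2.21 and 2.45 FPKM, and the Tnfr2-/- samples 1.98 and 1.86 FPKM. Both factors repress in resting cells together with relatives of RB. E2f4 was called lower as deposited in Tnfr1-/- (−0.70) with −0.51 in Tnfr2-/-, but its median-ratio changes of 0.40 and 0.45 were above 0 and below the fold threshold. E2f5 was not called as deposited (0.26 and 0.45) and was called higher after median-ratio scaling (0.82 and 1.13).

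All 7 genes grouped as cyclins, CDKs and Wee1 of the division cycle were called lower in both knockouts as deposited. After median-ratio scaling 3 were called lower in Tnfr2-/- and 2 in Tnfr1-/-. Beside these few genes, 57.1% and 60.7% of all listed genes were called lower as deposited, and 21% and 22.1% after the scaling. Ccnd1 measured 16.9 and 16.8 FPKM in the WT samples, 1.28 and 1.32 FPKM in the Tnfr1-/- samples, and 1.66 and 2.20 FPKM in the Tnfr2-/- samples. Ccnd1 (chromosome 7 from 144929931 to 144939925, GRCm38), which encodes cyclin D1, fell, with log2 changes of −2.61 (SE 0.12, adjusted p = 4.96e-05) in Tnfr2-/- and −2.96 (SE 0.12, adjusted p = 3.11e-05) in Tnfr1-/-, and of −1.76 and −2.03 after median-ratio scaling. An overlapping gene on the other strand, LTO1, covers 23.4% of its exon bases. Ccnd2 was at 44.7 and 46.1 FPKM in WT, 15.8 and 23.7 FPKM in Tnfr1-/-, and 12.3 and 11.2 FPKM in Tnfr2-/- MDSCs. The D cyclins lay on opposite sides between the knockouts, with both Tnfr2-/- samples above both Tnfr1-/- samples for Ccnd1 and below them for Ccnd2, which encodes cyclin D2. Ccnd2 fell in Tnfr2-/- under all 3 scalings (−1.87 as deposited and −0.91 after median-ratio scaling), and in Tnfr1-/- as deposited (−1.19) but not after median-ratio scaling (−0.083). The difference between the knockouts themselves, −0.68 (SE 0.19), did not pass the test (adjusted p = 0.127).

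For Ccne1 the WT samples gave 13.91 and 12.99 FPKM, the Tnfr1-/- samples 4.17 and 2.36 FPKM, and the Tnfr2-/- samples 2.74 and 2.77 FPKM. Ccne1, cyclin E1, fell under every scaling, with log2 changes of −1.94 (SE 0.22, adjusted p = 0.000759) and −1.79 as deposited and −1.08 and −0.81 after median-ratio scaling. Ccnb1 measured 22.9 and 23.7 FPKM in the WT samples, 8.56 and 5.15 FPKM in the Tnfr1-/- samples, and 8.16 and 4.95 FPKM in the Tnfr2-/- samples. Ccnb1, the mitotic cyclin B1, was called lower as deposited (−1.72 and −1.66) but not after median-ratio scaling (−0.79 and −0.61), and its samples differed widely within each knockout. The kinase partners of the D cyclins stayed nearer to the median gene. Cdk4 was at 64.7 and 67.0 FPKM in WT, 30.0 and 30.6 FPKM in Tnfr1-/-, and 25.8 and 42.1 FPKM in Tnfr2-/- MDSCs. For Cdk6 the WT samples gave 5.22 and 4.39 FPKM, the Tnfr1-/- samples 2.30 and 2.06 FPKM, and the Tnfr2-/- samples 1.96 and 2.09 FPKM. Cdk4 and Cdk6 were called lower as deposited, Cdk4 at −0.98 and −1.10 and Cdk6 at −0.94 and −0.87, but not after median-ratio scaling, when Cdk4 had −0.0018 and 0.021 and Cdk6 −0.18 and 0.0029. Wee1 measured 7.11 and 6.91 FPKM in the WT samples, 3.16 and 2.29 FPKM in the Tnfr1-/- samples, and 3.39 and 3.67 FPKM in the Tnfr2-/- samples. Wee1, the kinase that holds CDK1 inactive, was likewise called lower as deposited (−0.82 and −1.11) and not after median-ratio scaling (0.0038 and −0.19).

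**Figure D3:**
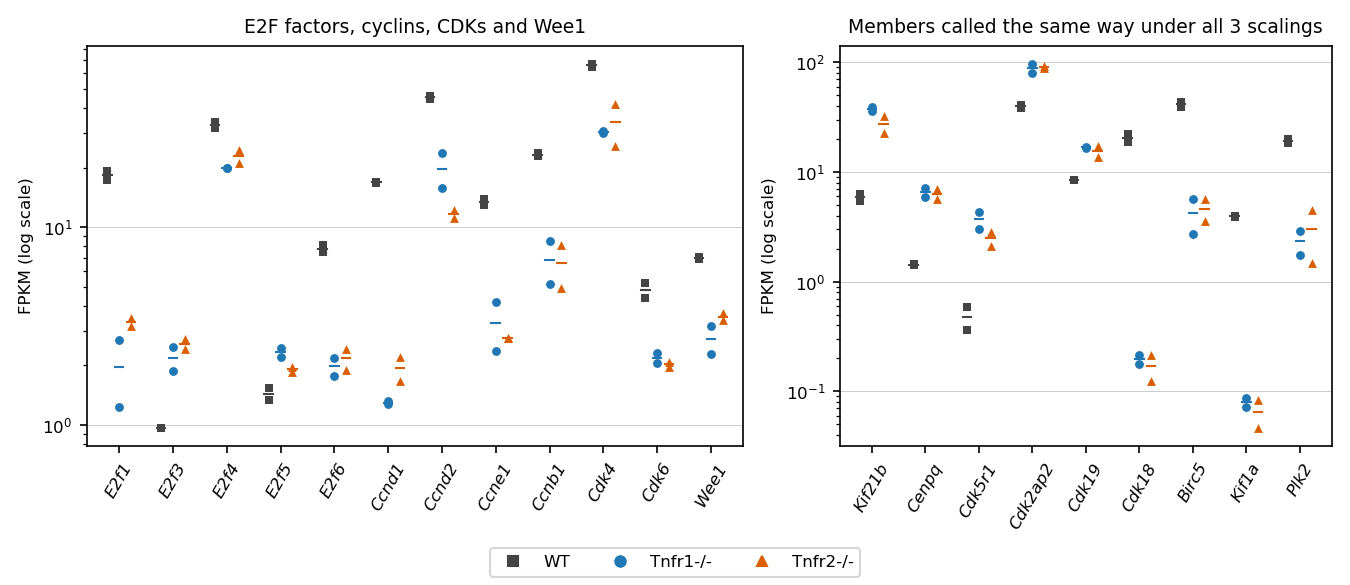
FPKM on a log scale of the E2F factors, cyclins, CDKs and Wee1 (left) and of 9 members called the same way under all 3 scalings in both knockouts (right), with a point for each sample of WT (squares), Tnfr1-/- (circles) and Tnfr2-/- (triangles) MDSCs and a bar for the mean of 2 samples. E2f1, E2f6, Ccnd1 and Ccne1 lie below WT and E2f3 above it under every scaling, while the lower values of Cdk4, Cdk6 and Wee1 were not called after median-ratio scaling.

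The CDKs and CDK-named genes grouped as outside the division cycle were split. Of 19, 5 were called higher and 10 lower in Tnfr2-/- as deposited, and 5 and 9 in Tnfr1-/-, which became 7 and 2, and 8 and 4, after median-ratio scaling. In Tnfr2-/- the shares of all listed genes were 13.6% higher and 57.1% lower as deposited, and 21.8% and 21% after scaling. In Tnfr1-/- they were 14.1% and 60.7%, and 23.3% and 22.1%. Cdk2ap2, Cdk5r1, Cdk13, Cdk17 and Cdk19 rose in both knockouts under all 3 scalings. Cdk5r1 was at 0.362 and 0.583 FPKM in WT, 4.35 and 3.05 FPKM in Tnfr1-/-, and 2.85 and 2.11 FPKM in Tnfr2-/- MDSCs. Cdk5r1, which encodes the p35 activator of CDK5, rose by 1.23 (SE 0.18, adjusted p = 0.00205) in Tnfr2-/- and 1.66 (SE 0.18, adjusted p = 0.000667) in Tnfr1-/-, from the lowest level of the 5 in WT. For Cdk2ap2 the WT samples gave 38.5 and 41.1 FPKM, the Tnfr1-/- samples 80.3 and 97.1 FPKM, and the Tnfr2-/- samples 92.0 and 89.5 FPKM. Cdk19 measured 8.38 and 8.51 FPKM in the WT samples, 17.0 and 16.6 FPKM in the Tnfr1-/- samples, and 17.4 and 13.6 FPKM in the Tnfr2-/- samples. Cdk2ap2 is known as an associate of CDK2, and Cdk19 encodes a kinase of the Mediator complex, whose paralog Cdk8 was called lower as deposited in both knockouts (−0.99 and −1.13) and not after median-ratio scaling (−0.087 and −0.10). Cdk18 was at 22.4 and 18.8 FPKM in WT, 0.215 and 0.177 FPKM in Tnfr1-/-, and 0.216 and 0.124 FPKM in Tnfr2-/- MDSCs. Cdk18, a kinase of the PCTAIRE group (chromosome 1 from 132112237 to 132139684, GRCm38), had the largest fall of all 101 members, with log2 changes of −4.20 (SE 0.11, adjusted p = 1.24e-05) in Tnfr2-/- and −4.17 (SE 0.11, adjusted p = 1.2e-05) in Tnfr1-/-, and of −3.47 and −3.41 after median-ratio scaling. Its paralogs in the same group went other ways: Cdk17 rose by 0.81 and 0.74 as deposited and by 1.63 and 1.70 after median-ratio scaling, and Cdk16, called lower as deposited (−1.09 and −1.16), was not called after median-ratio scaling (−0.14 and −0.074).

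Of the 18 mitotic kinase, kinetochore and checkpoint genes, 16 (88.9%) were called lower and Cenpq higher in each knockout as deposited, and 3 (16.7%) were called lower in each after median-ratio scaling (Birc5, Cenpb and Cenpw), with Cenpq still higher. For all listed genes the shares called lower were 57.1% and 60.7% as deposited, and 21% and 22.1% after this scaling. After quantile normalization the lower calls were 3 in Tnfr2-/- and 5 in Tnfr1-/-. For Birc5 the WT samples gave 39.0 and 43.6 FPKM, the Tnfr1-/- samples 5.64 and 2.73 FPKM, and the Tnfr2-/- samples 5.61 and 3.58 FPKM. Birc5 (chromosome 11 from 117849251 to 117855743, GRCm38), which encodes survivin, the chromosomal passenger that also blocks apoptosis, fell, with log2 changes of −2.94 (SE 0.33, adjusted p = 0.000769) and −3.09 (SE 0.33, adjusted p = 0.000571) in Tnfr2-/- and Tnfr1-/-, and of −2.01 and −2.04 after median-ratio scaling. Cenpq measured 1.44 and 1.42 FPKM in the WT samples, 7.09 and 5.91 FPKM in the Tnfr1-/- samples, and 7.01 and 5.69 FPKM in the Tnfr2-/- samples. Cenpq, a subunit of the inner kinetochore, was the member of its group that rose, by 1.59 (SE 0.14, adjusted p = 0.000329) and 1.62 (SE 0.14, adjusted p = 0.00027) as deposited and 2.20 and 2.37 after median-ratio scaling. Cenpb was at 92.5 and 101 FPKM in WT, 23.8 and 20.6 FPKM in Tnfr1-/-, and 21.2 and 29.1 FPKM in Tnfr2-/- MDSCs. Cenpb, the protein that binds centromeric repeats, fell, with log2 changes of −1.91 and −2.07 as deposited and −0.94 and −0.96 after median-ratio scaling.

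The kinases and checkpoint genes of mitosis themselves lay together. For Aurka the WT samples gave 12.1 and 11.9 FPKM, the Tnfr1-/- samples 5.64 and 2.98 FPKM, and the Tnfr2-/- samples 5.31 and 3.69 FPKM. Aurkb measured 18.6 and 19.7 FPKM in the WT samples, 7.60 and 4.55 FPKM in the Tnfr1-/- samples, and 7.23 and 7.09 FPKM in the Tnfr2-/- samples. Plk1 was at 18.4 and 17.2 FPKM in WT, 9.13 and 4.83 FPKM in Tnfr1-/-, and 8.78 and 6.07 FPKM in Tnfr2-/- MDSCs. These 3 kinases, which build the spindle and part the chromosomes, were called lower as deposited in both knockouts (from −1.54 to −1.18) and not after median-ratio scaling (from −0.50 to −0.25), although Aurkb in Tnfr1-/- was still called lower after quantile normalization. For Bub1 the WT samples gave 7.57 and 7.36 FPKM, the Tnfr1-/- samples 2.69 and 1.28 FPKM, and the Tnfr2-/- samples 2.84 and 2.13 FPKM. Bub1b measured 17.6 and 19.4 FPKM in the WT samples, 6.99 and 3.24 FPKM in the Tnfr1-/- samples, and 6.54 and 4.95 FPKM in the Tnfr2-/- samples. Both act in the spindle checkpoint, and their log2 changes were −1.29 and −1.55 for Bub1 and −1.54 and −1.74 for Bub1b as deposited, called in both knockouts, and −0.47 and −0.65, and −0.63 and −0.71 after median-ratio scaling, not called. Ndc80 was at 7.71 and 6.84 FPKM in WT, 4.16 and 2.20 FPKM in Tnfr1-/-, and 3.66 and 3.01 FPKM in Tnfr2-/- MDSCs. For Cenpa the WT samples gave 30.5 and 31.0 FPKM, the Tnfr1-/- samples 16.7 and 8.69 FPKM, and the Tnfr2-/- samples 14.5 and 10.6 FPKM. Ndc80, which holds the microtubule, and Cenpa, the centromeric histone H3 variant, were called lower as deposited (−0.93 and −1.24 in Tnfr2-/-) with median-ratio changes of −0.11 and −0.29, not called. All 4 mitotic kinesins (Kif2c, Kif20a, Kif20b and Kif22) were called lower in both knockouts as deposited, with log2 changes of −1.26 to −0.90 in Tnfr2-/-, and none after median-ratio scaling. As deposited, most of all listed genes were called lower too (57.1% and 60.7%).

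The Tnfr1-/- samples differed from each other most in these mitotic genes, by the median difference of each role. The first Tnfr1-/- sample was above the second for 18 of 18 mitotic kinase, kinetochore and checkpoint genes, with a median difference of 0.58 on the log2 scale, and for 4 of 4 mitotic kinesins, with a median of 0.65. After median-ratio scaling the counts were the same and the medians 0.62 and 0.65. The first Tnfr2-/- sample was above the second for 14 of 18 and 4 of 4 (17 of 18 and 4 of 4 after scaling), with medians of 0.19 and 0.40, whereas the WT samples split 9 to 9 and 2 to 2. Polymerase and clamp genes did not follow the mitotic ones in Tnfr2-/-: the second sample was higher for 10 of 12 under both scalings. For origin licensing genes the count moved with the scaling, from 17 of 18 as deposited to 11 of 18. Of all 8191 listed genes the second Tnfr2-/- sample was higher for 4721 as deposited and for 3418 after scaling. The first Tnfr1-/- sample was higher for 4200 and 3410 of them. Over all listed genes the median difference between the samples of a genotype was 0.01 in WT, 0.00171 in Tnfr1-/- and −0.04 in Tnfr2-/- as deposited. After scaling it was 0.0025, −0.016 and 0.022. What set the samples of a knockout apart was not tested.

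**Figure D4:**
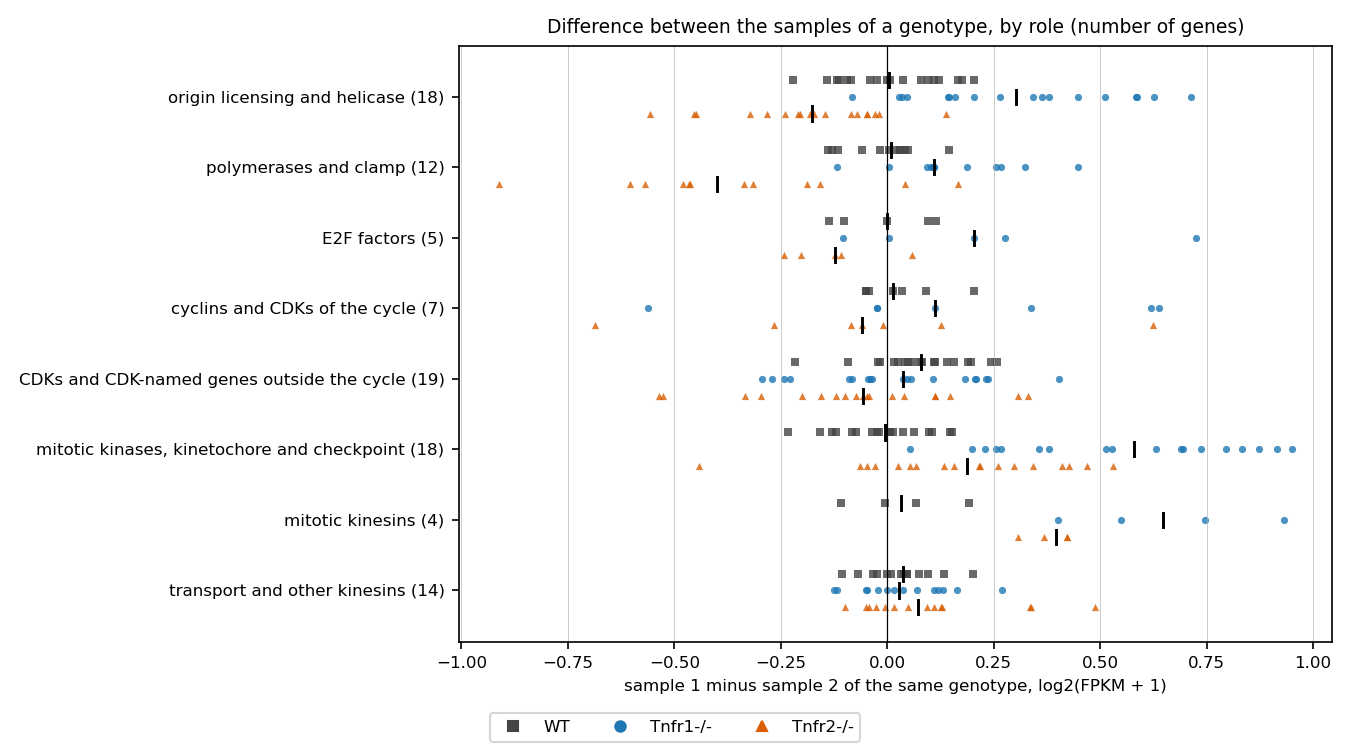
Difference in log2(FPKM + 1) between sample 1 and sample 2 of the same genotype for the members of 8 roles (points), with a black bar at each median, for WT (squares), Tnfr1-/- (circles) and Tnfr2-/- (triangles) MDSCs. The WT points lie around 0 in every role, while all 18 mitotic kinase, kinetochore and checkpoint genes and all 4 mitotic kinesins lie right of 0 in Tnfr1-/-, with medians of 0.58 and 0.65.

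The kinesins of transport and other tasks and the other Polo-like kinases held some of the largest differences from WT. Kif21b measured 6.36 and 5.40 FPKM in the WT samples, 38.7 and 35.8 FPKM in the Tnfr1-/- samples, and 32.1 and 22.6 FPKM in the Tnfr2-/- samples. Kif21b, a kinesin that regulates microtubule growth, had the largest rise of all members, by 2.03 (SE 0.18, adjusted p = 0.00039) in Tnfr2-/- and 2.48 (SE 0.18, adjusted p = 0.000184) in Tnfr1-/-, and by 2.88 and 3.48 after median-ratio scaling. Against it, Kif1a, Kif1c, Kif3a, Kif5a and Kif13a fell in both knockouts under all 3 scalings, and the other 8 of the 14 had no call that held under every scaling. Over all listed genes 19.9% in Tnfr2-/- and 21.4% in Tnfr1-/- were called lower under all 3 scalings. Kif1a was at 3.89 and 3.97 FPKM in WT, 0.0715 and 0.0871 FPKM in Tnfr1-/-, and 0.0465 and 0.0832 FPKM in Tnfr2-/- MDSCs. Kif1a carries synaptic vesicle precursors in neurons, and was low but measured in WT and near 0 in the knockouts. For Plk2 the WT samples gave 20.1 and 18.4 FPKM, the Tnfr1-/- samples 1.74 and 2.91 FPKM, and the Tnfr2-/- samples 1.49 and 4.54 FPKM. Plk3 measured 49.3 and 44.3 FPKM in the WT samples, 11.5 and 14.9 FPKM in the Tnfr1-/- samples, and 8.63 and 16.8 FPKM in the Tnfr2-/- samples. Plk2 fell in both knockouts under all 3 scalings (−2.45 and −2.63 as deposited), and Plk3 in Tnfr2-/- (−1.87), while in Tnfr1-/- Plk3 was called lower as deposited (−1.76) and not after median-ratio scaling (−0.66). Both are stress-induced relatives of Plk1, and in Tnfr2-/- their second sample stood above the first. Ccnb1ip1, an E3 ligase of meiotic recombination, was listed at 0 in both WT samples, at 0.98 and 0.964 FPKM in Tnfr1-/- and at 0.524 and 0.494 FPKM in Tnfr2-/- MDSCs, so no fold is given against WT.

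Most cell cycle genes on other lists were also called lower as deposited, beside 57.1% and 60.7% of all listed genes, and fewer after median-ratio scaling, beside 21% and 22.1%. All 18 listed of 22 genes of nucleotide supply and replication (Rrm1, Rrm2, Tk1 and Fen1 among them) were called lower in both knockouts as deposited and 4 in each after median-ratio scaling. Of 18 listed of 36 mitosis genes, 14 in Tnfr2-/- and 16 in Tnfr1-/- were called lower and 1 (Mad1l1) higher as deposited, against 2 and 3 lower and 2 higher in each after median-ratio scaling. The 12 listed of 15 genes of the anaphase-promoting complex had 9 and 10 called lower as deposited and 2 in each after median-ratio scaling, when 1 and 2 were called higher and the medians were 0.088 and 0.17, and the 4 listed of 11 RB-family and partner genes had 2 called lower in each as deposited and 0 after it. Among the 5 listed of 7 CDK inhibitors, Cdkn1b (17.8 to 19.1 FPKM in WT, 76.7 to 109 FPKM in the knockouts) and Cdkn2d (10.2 to 11.3 FPKM and 70.7 to 95.9 FPKM) were called higher under both scalings in both knockouts. The other 3 were called lower in both as deposited: Cdkn1a (120 to 126 FPKM in WT, 5.80 to 23.7 FPKM in the knockouts) and Cdkn1c (5.87 to 5.91 FPKM, 0.194 to 0.351 FPKM) also after median-ratio scaling, and Cdkn2b (3.02 to 3.68 FPKM, 0.250 to 1.22 FPKM) after it in Tnfr1-/- alone.

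Between the knockouts no member was called. In Tnfr2-/- against Tnfr1-/- 0 of 101 members passed limma's adjusted p and the fold threshold in either direction, against 0.842% of all listed genes higher and 0.61% lower, and 0 after median-ratio scaling, against 1.09% and 1.45%. At an unadjusted p under 0.05 there were 9 members (12 after median-ratio scaling), against 24% and 22.5% of all listed genes. Of the 9, Ccnd1, Cdk14, Cdk20, Cdk2ap1 and Kif13a were on the higher side in Tnfr2-/- and Ccnd2, Ccnb1ip1, Kif17 and Pole4 on the lower side as deposited. The median log2 difference of the members was 0.08, beside 0.06 for all listed genes, and it was −0.03 after median-ratio scaling and −0.0122 without the second Tnfr1-/- sample, so no direction held. Ccnb1ip1 passed the adjusted p alone (0.0116), at a log2 difference of −0.39, under the fold threshold. The spread used for these tests includes WT, where Ccnb1ip1 stood at 0 in both samples. Over all listed genes the SD between samples was 0.079 in WT, 0.14 in Tnfr1-/- and 0.22 in Tnfr2-/- on the log2 scale. With only the knockouts in the model, 0% of all listed genes were called in either direction. Cdk14 was at 5.65 and 5.43 FPKM in WT, 1.11 and 1.59 FPKM in Tnfr1-/-, and 2.22 and 3.66 FPKM in Tnfr2-/- MDSCs. Cdk14, a kinase of Wnt signalling that pairs with cyclin Y, had the largest log2 difference towards Tnfr2-/- among the members (0.73, SE 0.21, adjusted p = 0.128). For 71 of 101 members the samples of the knockouts overlapped, and 20 members had both Tnfr2-/- samples above both Tnfr1-/- samples and 10 below, against 34.9% and 16.1% of all listed genes. A p that misses the threshold with 2 samples a group does not show that the genotypes were alike, and without the first Tnfr2-/- sample Cdk14, Pold2, Pole3 and Rfc4 were called higher and Kif21b lower, when the calls over all listed genes also rose to 535 higher and 127 lower.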

How the data were processed

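RNA of sorted MDSCs was made into SMARTER mRNA libraries and sequenced as single-end reads of 50 bases, and the authors checked reads with FastQC and deposited FPKM values per gene (build mm10 per the submitters' processing notes; the aligner and the tool that made the FPKM values are not given in the sources used here). The labels describe cell sorting and the study's methods an isolation kit. The deposited p-value column is a one-way ANOVA over genotypes, recomputed within 1 percent for all 8191 genes. It was not used as a test here, but it fixed which genes are listed. Depth is unknown, so no counting error is given. No count model was run on FPKM.

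Samples were grouped by the genotype in the labels. Changes in log2(FPKM + 1) were tested two-sided with limma 3.58.1 in R 4.3.3 (eBayes with trend) in one model of 6 samples, with Benjamini-Hochberg adjustment over 8191 genes. These genes had already passed an ANOVA over the same samples. The adjusted p-values can therefore be too small and cannot be read as a false discovery rate. A gene was called at an adjusted p under 0.05 and a fold over 1.5. Fold changes on this scale understate those of low genes. The test recovered 163 of 200 genes changed by 2 on the log2 scale in simulated data of 8191 genes for Tnfr2-/- against WT. The simulated data held no other changed genes, gave all groups the same spread and were not filtered by an ANOVA. This rate need not hold for the deposited values. An exact test of 2 against 2 samples cannot go below p = 0.333. The members and gene lists were chosen with earlier results of these data known. Genes named with values in every sample were 35 listed of a list of 50, plus the 3 largest rises and falls called in a comparison whose groups did not overlap, 39 in all; Cdk2ap2, Cdk14, Cdk19, Cenpb, Pole3, Pole4, Kif1a, Plk2, Plk3, Ccnb1ip1 and other genes named were chosen after their values were seen. Promoters were printed for the most abundant member with E2F-type letters in each of 3 roles, with the next members of the MCM hexamer added later. Positions and shared 50-base windows come from GENCODE M21 (GRCm38, 101 of 101 members matched). Alternatives were median-ratio and quantile scaling, a pseudocount of 0.1, genes with a mean of at least 1 FPKM, no trend, only the groups compared, a replicate block and each sample left out; those combining median-ratio scaling with a left-out sample or the block were added after the data were seen. Annotation and figures were made with Python 3.11.15 (pandas 2.3.3, NumPy 2.4.6, SciPy 1.17.1, matplotlib 3.10.9).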

Additional observations from a re-analysis of the deposited data

How the results depend on the processing

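Scaling moved the results most. With a pseudocount of 0.1 the members' median log2 change became −1.17 (Tnfr2-/- against WT) and −1.35 (Tnfr1-/- against WT), beside −0.97 and −1.11 for all listed genes. Then 1 member (Ccnb1ip1) was called lower in Tnfr2-/- against Tnfr1-/-, beside 0.964% of all listed genes. With median-ratio size factors, 15 members were higher and 24 lower in Tnfr2-/- against WT (median −0.142), beside 21.8% and 21% of all listed genes. In Tnfr1-/- against WT they were 16 and 25 (median −0.185), beside 23.3% and 22.1%. With quantile normalization 28 were lower in Tnfr2-/- against WT (median −0.236), beside 22.8%. In Tnfr1-/- against WT 14 were then higher and 34 lower (median −0.327), beside 21.4% and 25.3%. Leaving out 1 sample as deposited gave 8 to 9 higher, 60 to 74 lower and medians of −1.07 to −0.933 in Tnfr2-/- against WT, 8 to 9 higher, 69 to 77 lower and medians of −1.25 to −0.986 in Tnfr1-/- against WT, and 0 to 4 higher, 0 to 1 lower and medians of −0.0122 to 0.192 between the knockouts, the highest counts without the first Tnfr2-/- sample. After median-ratio scaling it gave 14 to 16 higher, 13 to 25 lower and medians of −0.202 to −0.103 in Tnfr2-/- against WT, 16 higher, 19 to 32 lower and medians of −0.351 to −0.0343 in Tnfr1-/- against WT, and 0 to 1 higher, 0 to 1 lower and medians of −0.106 to 0.0707 between the knockouts. The cause of these shifts was not tested.

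Median-ratio scaling turned the sign of 22 members in Tnfr2-/- against WT and 21 in Tnfr1-/- against WT from below to above 0. Of these, 11 and 13 had been called lower as deposited. The same scaling moved all listed genes: of 8191, those below 0 went from 6370 to 4321 in Tnfr2-/- and from 6361 to 4312 in Tnfr1-/-. Of the genes named by rule, those so called and turned were, in Tnfr2-/- against WT, Wee1 (0.00379), Mcm4 (0.0624), Pola1 (0.0396) and Rfc1 (0.0497), and in Tnfr1-/- against WT of Mcm4 (0.036), Mcm5 (0.0437), Rfc1 (0.223), E2f4 (0.402), Cdk4 (0.0212) and Cdk6 (0.00295); quantile normalization turned Pola1 in Tnfr2-/- (0.0249) and Rfc1 (0.0222) and E2f4 (0.24) in Tnfr1-/-.

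Replicate numbers are shared between groups, but the labels do not tie a number to a batch. The differences between first and second samples correlated at 0.0217 to 0.0462 over all listed genes between pairs of genotypes. Over the members they correlated at −0.235 for WT and Tnfr1-/-, −0.0102 for WT and Tnfr2-/-, and 0.426 for the knockouts. Whether samples with the same number also share an experiment or a batch was not tested. With the number as a replicate block, the counts in all 3 comparisons were the same as without it (9 higher and 73 lower, 9 and 76, 0 and 0, with medians of −0.992, −1.18 and 0.0819). Of all listed genes 13.6% were then higher and 57.1% lower in Tnfr2-/- against WT, and 14% and 60.7% in Tnfr1-/- against WT. Between the knockouts the shares were 0.0244% and 0.061%. With both the block and median-ratio size factors, 15 were higher and 24 lower (median −0.142) in Tnfr2-/- against WT, beside 21.8% and 21% of all listed genes. In Tnfr1-/- against WT 16 were higher and 26 lower (median −0.185), beside 23.3% and 22.2%.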
